A study of Mus musculus with 4 samples.

Results

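The genes described here encode ubiquitin ligases and ligase adaptors that act in T cells, namely Cbl, Cblb, Itch, Nedd4, Nedd4l, Ndfip1, Ndfip2, Rnf128, Peli1 and Stub1. They were taken by gene symbol from the deposited table, and all 10 were found among its 24418 gene rows. The RNA came from CD4+ YFP+ Treg cells sorted out of the spleen and lymph nodes of mice that carry the Foxp3 YFP-Cre allele, in which the Foxp3 locus itself drives YFP and Cre, so that every library carries this allele. The cells were kept for 3 h with 100 ng/mL of TSLP (thymic stromal lymphopoietin, a cytokine of epithelial cells) or with PBS as the control. Each group had 2 libraries, called PBS 1, PBS 2, TSLP 1 and TSLP 2 below, with 11328132, 10724392, 11761234 and 10271571 reads on genes. No label states whether the samples of a group came from separate mice, so p-values measure the spread between these samples, which may be technical. The comparison asks how expression of these genes differed after TSLP.

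A ubiquitin ligase brings a substrate to a conjugating enzyme loaded with ubiquitin, which marks the substrate for degradation or changes its traffic and signaling. CBL and CBLB are RING ligases that act on receptors and kinases after antigen stimulation, whereas ITCH, NEDD4 and NEDD4L are HECT ligases that first take ubiquitin onto themselves. NDFIP1 and NDFIP2 are membrane adaptors that recruit and activate ligases of the NEDD4 family. Loss of CBLB, ITCH or NDFIP1 in mice breaks T cell tolerance.

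The libraries were first read for genes that mark the sorted cells, in cpm (reads per 1000000 reads on genes in a library). Foxp3, the lineage factor of Treg cells, was at 222 (PBS 1), 472 (PBS 2), 407 (TSLP 1) and 470 (TSLP 2), with PBS 1 the lowest. Cd4 lay between 512 and 602 in the 4 libraries and Il2ra, the high-affinity IL-2 receptor chain, between 342 and 498. Of the 7 Treg and T cell genes read, PBS 1 was the lowest library in 5 (Foxp3, Il2ra, Ikzf2, Cd4 and Cd3e) and the highest in 2. These were Tnfrsf18, which encodes GITR, at 532 (PBS 1), 348 (PBS 2), 356 (TSLP 1) and 427 (TSLP 2), and Ctla4, an inhibitory receptor, at 1284, 1142, 1198 and 1253. Of 14 genes of CD8 T, B, myeloid and NK cells, the sum per library was 16.9 (PBS 1), 24.1 (PBS 2), 17.9 (TSLP 1) and 32.0 (TSLP 2). The most abundant of these 14 was Cd8b1, at 7.09 to 10.6, while Adgre1, Ncr1 and S100a9 had no reads in any library. In bulk RNA, fewer cells expressing a gene and less RNA per cell cannot be told apart.

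None of the 10 ligase genes passed the test of TSLP against PBS. The most abundant per length were Cblb, Peli1 and Ndfip1, whose log2 fold changes were 0.19, −0.01 and −0.05. Nedd4, with few reads, had higher values in both TSLP libraries, and Cbl differed more between the PBS libraries than between the groups. Values are given as normalized counts, which are the reads on a gene after division by the size factor of its library, and were compared on log2(normalized count + 1) with limma. All 10 genes were among the 11392 tested, which needed a normalized count of 10 or more in 2 or more libraries. At an adjusted p under 0.05 (limma, Benjamini-Hochberg over all genes tested) 0 of the 10 members and 0 of 11392 genes (0%) were called. At an unadjusted p under 0.05, 0 members stood against 192 of 11392 genes (1.69%) by limma. edgeR and DESeq2 on the recovered reads also gave 0 members at an unadjusted p under 0.05, against 2.05% of the genes tested by either tool, and 0 at an adjusted p under 0.05.

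The log2 fold change, TSLP against PBS, was above 0 for 8 members and below 0 for 2, beside 51.2% above 0 over all genes tested, with a median of 0.17 beside 0.01. The direction turned in 5 of the 10 members without PBS 1, and in 7 on leaving out some library. The members' median was 0.00 without PBS 1, 0.34 without PBS 2, 0.11 without TSLP 1 and 0.18 without TSLP 2, and it was 0.00 once the dependence on exon length was taken out of every library. For 5 members (Cblb, Itch, Ndfip1, Ndfip2 and Peli1) the 95% interval of the change lay within 2-fold in either direction, between 0.699-fold and 1.66-fold. For Cbl, Nedd4, Nedd4l, Rnf128 and Stub1 the interval reached past 2-fold, so that it does not exclude a change of that size.

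**Figure D1:**
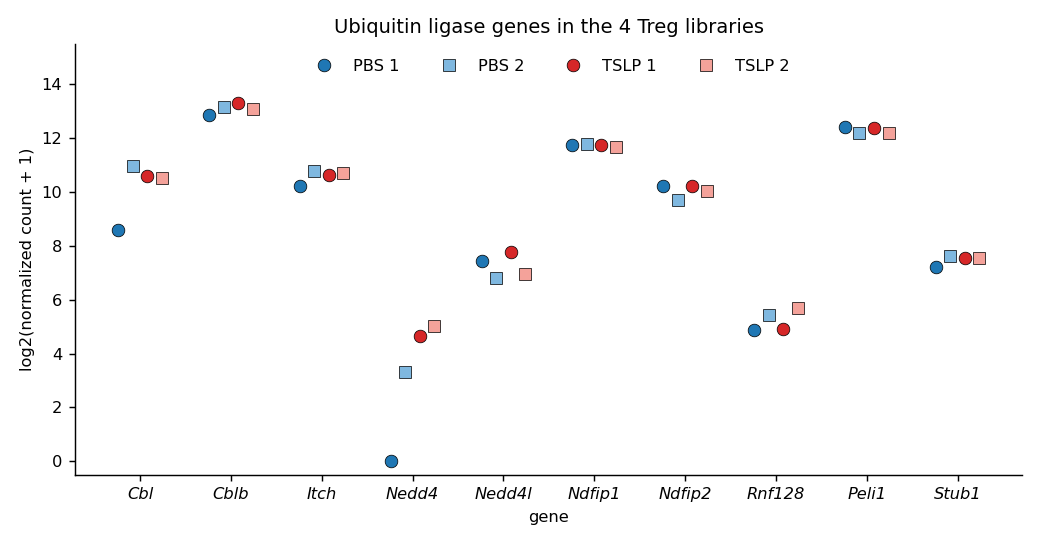
Log2(normalized count + 1) of the 10 genes in the 4 libraries, 1 point per library. Cbl in PBS 1 (386 normalized counts) and Nedd4 in PBS 1 (0 reads) lie far below the other libraries of their gene, while Ndfip1 has its 4 points closest together.

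**Figure D2:**
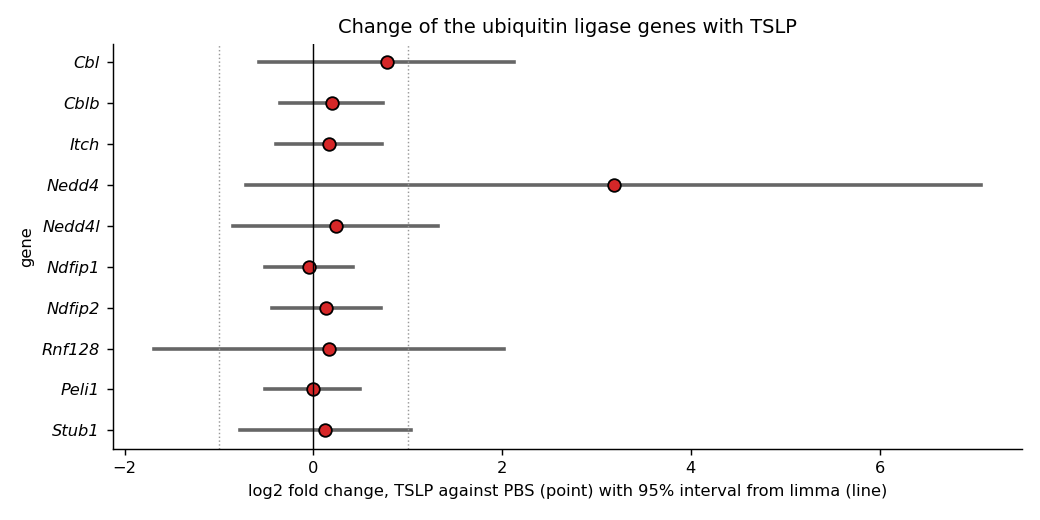
Log2 fold change of each gene, TSLP against PBS, with its 95% interval from limma on log2(normalized count + 1), from 2 libraries in each group. Every interval includes 0, and the widest is that of Nedd4, from −0.71 to 7.07, while the dotted lines mark a 2-fold change.

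Cblb, the CBL protein that sets the need for CD28 costimulation in T cells, was the member with the most reads. Its normalized count was 7459 (PBS 1), 9069 (PBS 2), 10049 (TSLP 1) and 8794 (TSLP 2). TSLP 2 lay between the PBS libraries, so the groups overlapped. The PBS mean was 8264 ± 1138 and the TSLP mean 9422 ± 887 (SD, n = 2 each). The log2 fold change was 0.19 (standard error 0.24, 95% interval −0.35 to 0.74, limma adjusted p = 0.9999). It was 0.052 without PBS 1, 0.33 without PBS 2 and 0.0073 with the length trend removed. Cblb lies on chromosome 16 of mm10 from 52031225 to 52208048, on the forward strand, with 10475 bases of exon.

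Cbl, the founding member of the same family, has 12345 bases of exon on the reverse strand of chromosome 9 (44142976 to 44234049). Its normalized count was 386 (PBS 1) but 2000.0 (PBS 2), 1553 (TSLP 1) and 1459 (TSLP 2). PBS 2 was thus the highest of the libraries and PBS 1 the lowest, with both TSLP libraries between them. The spread within PBS was 5.18-fold, the PBS mean was 1193 ± 1141 and the TSLP mean 1506 ± 66.2 (SD, n = 2 each). The log2 fold change of 0.78 (standard error 0.60, 95% interval −0.58 to 2.13, limma adjusted p = 0.9999) rested on PBS 1. Without PBS 1 it was −0.41, and without PBS 2 it was 1.96, each with the lone PBS library taken to vary like the TSLP libraries. By edgeR on the recovered reads it was 0.33.

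The low value of Cbl in PBS 1 was measured against the other genes. In PBS 1, Cbl was 4.02-fold below the median of the other 3 libraries. Among the 8174 genes with a mean normalized count of at least 100, 376 (4.6%) lay over 2-fold below in PBS 1. This share was 1.02% in PBS 2, 1.15% in TSLP 1 and 1.33% in TSLP 2. Over 2-fold above lay 217 (2.655%) in PBS 1, beside 0.66% in PBS 2, 0.45% in TSLP 1 and 0.75% in TSLP 2. As low as Cbl or lower were 38 of the 8174 genes (0.465%). With a mean of at least 1000, only Cbl itself and Zbed6 were as low among 2716 genes. Of the 8 members with a mean of at least 100, Cbl was the only one over 2-fold below in any library, and none was over 2-fold above. These ratios are those before any removal of a length trend.

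**Figure D3:**
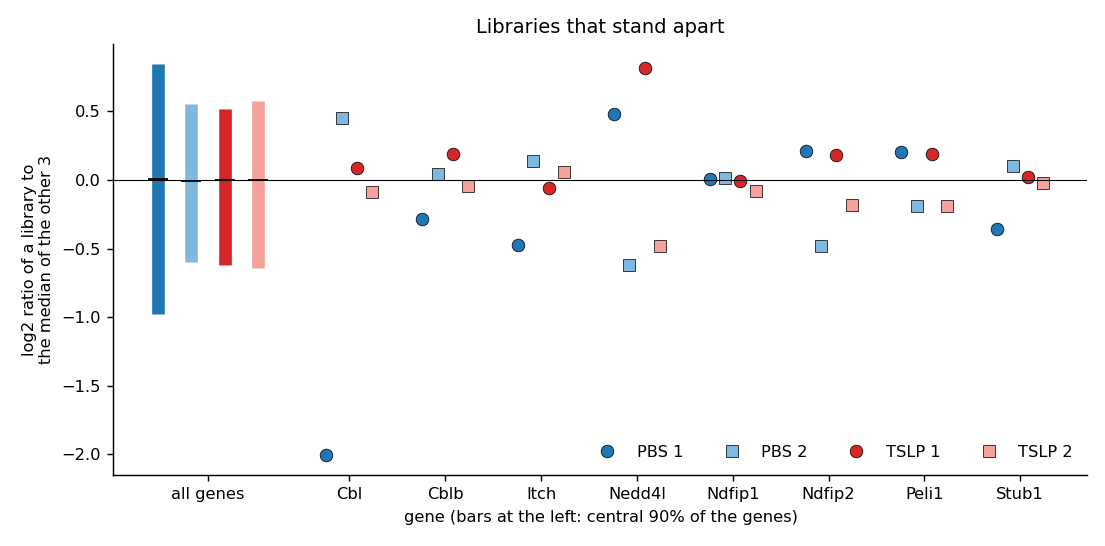
Log2 ratio of each library to the median of the other 3 for the 8 members with a mean normalized count of at least 100, 1 point per library, beside bars for the central 90% of all 8174 such genes (black tick, median). Cbl in PBS 1, at −2.01, lies below the bar of PBS 1, which ends at −0.98, while Nedd4l lies above the bar in TSLP 1 (0.81) and just below it in PBS 2 (−0.62).

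Both PBS libraries differed from the others with gene length, in opposite directions. Over the genes with a mean of at least 1000, the log2 ratio of PBS 1 to the median of the other libraries had a Spearman rho of −0.65 with exon length, a description across genes, which are not independent replicates. The same rho was 0.46 for PBS 2, in which Cbl was highest, 0.14 for TSLP 1 and 0.05 for TSLP 2. In the 482 of these genes with 10000 or more bases of exon the median ratio of PBS 1 was −0.49, and Cbl, at −2.01, was the only 1 of these as low. With the length trend removed from each library, Cbl in PBS 1 was still 1.48 below the other libraries on the log2 scale. Before this removal the ratio of PBS 1 was −0.28 for Cblb, −0.48 for Itch with 9709 bases of exon, 0.21 for Ndfip2 with 11553 bases and 0.48 for Nedd4l with 17659 bases. With the trend removed it was 0.16 for Cblb, −0.11 for Itch, 0.65 for Ndfip2 and 1.1 for Nedd4l. It was then 0.25 for Ndfip1, 0.39 for Peli1 and −0.42 for Stub1. Nedd4l in PBS 1 was thus over 2-fold above the other libraries on this scale, so Cbl was not alone in standing apart. Nedd4, with 10973 bases and 0 reads in PBS 1, was at −4.67 on the log2(normalized count + 1) scale. It was at −4.20 with the length trend removed. With 0 reads these values depend on the pseudocount, so they are not ranked against that of Cbl.

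**Figure D4:**
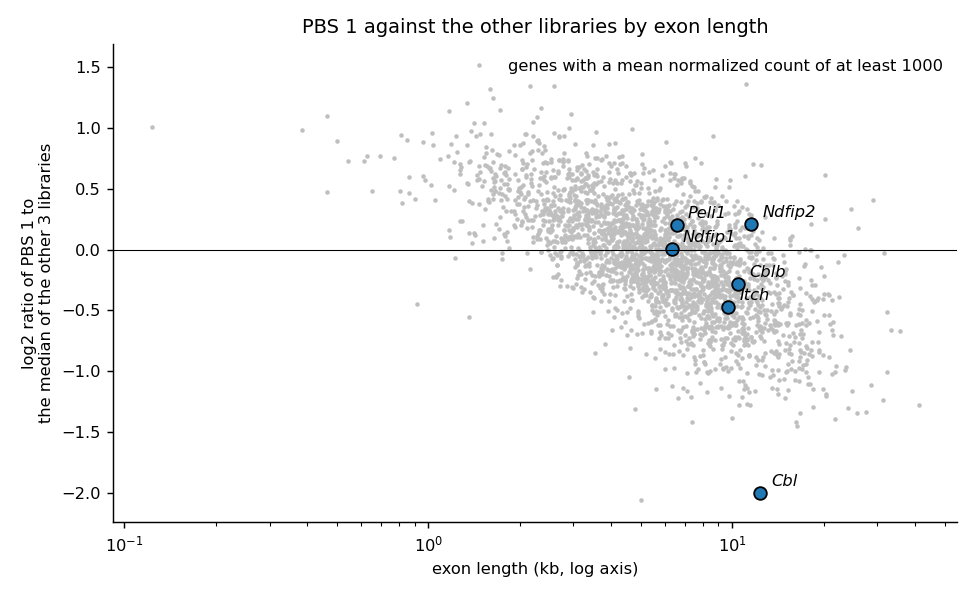
Log2 ratio of PBS 1 to the median of the other 3 libraries against exon length (log axis) for genes with a mean normalized count of at least 1000 (grey), with the 6 members among them in blue. The ratio falls with exon length, and Cbl lies at −2.01 where genes with 10000 or more bases of exon have a median of −0.49.

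Cbl and Cblb can be set side by side within a library, which needs no size factor. Per kb of exon, Cblb was at 22.8 times the level of Cbl in PBS 1, 5.34 times in PBS 2, 7.63 times in TSLP 1 and 7.10 times in TSLP 2. Cblb was the more abundant of the pair in every library. The high ratio in PBS 1 restates the low Cbl value of that library.

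Itch encodes the HECT ligase that acts on JUNB and restrains type 2 cytokine production, and lies on chromosome 2 from 155133509 to 155226855. Its normalized count was 1188 (PBS 1), 1749 (PBS 2), 1588 (TSLP 1) and 1652 (TSLP 2). The PBS libraries were the lowest and the highest, with both TSLP libraries between them, as for Cbl but with a smaller spread. The log2 fold change was 0.17 (standard error 0.25, 95% interval −0.40 to 0.73, limma adjusted p = 0.9999), −0.11 without PBS 1 and 0.45 without PBS 2.

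Nedd4, the HECT ligase that gives the family its name and that is described as acting on CBLB in T cells, was near the limit of detection. The gene lies on chromosome 9 from 72662346 to 72749852. It had 0 (PBS 1), 9 (PBS 2), 26 (TSLP 1) and 30 (TSLP 2) reads. Both TSLP libraries were above both PBS libraries, and Nedd4 was the only 1 of the 10 members of which this was true, where 14.5% of all genes tested had it. The 0 reads of PBS 1 allow up to 3 reads, or 0.265 cpm, by counting error only. Nedd4 passed the filter on low counts through the TSLP libraries alone, so that passing it already required a difference. The PBS mean was 4.50 ± 6.37 normalized counts and the TSLP mean 27.9 ± 4.85 (SD, n = 2 each). On the log2 scale the difference of 3.18 (standard error 1.72, unadjusted p of 0.0974, limma adjusted p = 0.9999) depends on the pseudocount. It was 3.69 with a pseudocount of 0.5 and 1.97 with 5. Without PBS 1 it was 1.52, and without PBS 2, which leaves the PBS library with 0 reads, it was 4.84.

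The table of RefSeq promoters (GRCm38.p6) holds 2 start windows for Nedd4, from 250 bases before to 50 bases after each start. The windows were read for TTCNNNGAA, the letters that STAT factors are known to bind. The motif is its own reverse complement, so a match counts on both strands. Nedd4 is shown as the member picked for its higher values in both TSLP libraries, so the window is a description and bears on no difference between the groups. The second window, on chr9:72693048-72693347 of the forward strand, holds 1 match that begins 23 bases before the start, in capitals here.
Nedd4 second start: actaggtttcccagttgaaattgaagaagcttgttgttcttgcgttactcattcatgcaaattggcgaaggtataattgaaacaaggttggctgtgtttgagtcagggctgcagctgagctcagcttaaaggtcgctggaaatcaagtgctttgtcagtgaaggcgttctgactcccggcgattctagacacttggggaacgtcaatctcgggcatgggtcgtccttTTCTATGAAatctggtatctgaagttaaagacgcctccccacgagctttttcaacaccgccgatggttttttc

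A match of this kind is a description of letters and not a binding site. It was found in 8.30% of the 32851 windows of 300 bases in the table. Windows were given for 7 of the 10 members (Cbl, Cblb, Ndfip2, Nedd4, Rnf128, Peli1 and Stub1), 8 windows in all, and only the second window of Nedd4 held the motif, a share near that of all windows. The first Nedd4 window, on chr9:72662081-72662380, held none.

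Nedd4l, which controls sodium channels in epithelia and shares the HECT fold of Nedd4, had a normalized count of 173 (PBS 1), 112 (PBS 2), 218 (TSLP 1) and 123 (TSLP 2). In each group the library numbered 1 was the higher, and the groups overlapped. The log2 fold change was 0.24 (standard error 0.48). It was −0.073 with the length trend removed, −0.074 without PBS 2 and −0.17 without TSLP 1. Nedd4l has the longest exons of the members, 17659 bases.

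Among the adaptors, Ndfip1 had nearly the same value in every library, 3466 (PBS 1), 3484 (PBS 2), 3454 (TSLP 1) and 3281 (TSLP 2). It was the only member with both TSLP libraries below both PBS libraries, which 14.4% of all genes tested showed, but the distance was small. The means were 3475 ± 12.5 (SD, n = 2) and 3368 ± 122 (SD, n = 2), a log2 fold change of −0.05 (standard error 0.21, 95% interval −0.52 to 0.43, limma adjusted p = 0.9999). Ndfip2, on chromosome 14 from 105258573 to 105309298, had 1207 (PBS 1), 844 (PBS 2), 1181 (TSLP 1) and 1043 (TSLP 2). Here the PBS libraries enclosed the TSLP libraries, with PBS 1 the highest. Its log2 fold change was 0.14 (standard error 0.26), and it was −0.073 with the length trend removed and −0.12 without PBS 2. Per kb of exon, Ndfip1 was at 5.24 times the level of Ndfip2 in PBS 1, 7.53 times in PBS 2, 5.33 times in TSLP 1 and 5.74 times in TSLP 2.

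Peli1 encodes Pellino-1, a ligase that acts on the NF-κB subunit c-Rel and restrains T cell activation, and lies on chromosome 11 from 21091291 to 21150323. Its normalized count was 5399 (PBS 1), 4695 (PBS 2), 5359 (TSLP 1) and 4689 (TSLP 2). In both groups the library numbered 1 was higher by about the same amount, with log2 ratios of 0.20 for PBS and 0.19 for TSLP. The difference between the groups was −0.01 on the log2 scale (standard error 0.22, 95% interval −0.51 to 0.50), the smallest of the 10 members, and it was 0.094 without PBS 1 and 0.090 without TSLP 2.

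Rnf128 encodes GRAIL, a transmembrane ligase linked to T cell anergy, and lies on chromosome X from 139563316 to 139673145. It had 29 (PBS 1), 42 (PBS 2), 31 (TSLP 1) and 49 (TSLP 2) reads, and in both groups the second library was the higher, by more than the group means were apart. Its log2 fold change was 0.17 with a standard error of 0.82, and it turned to −0.12 without PBS 1 and −0.23 without TSLP 2. Stub1 encodes CHIP, a U-box ligase that works with heat shock proteins and that has been described to act on Foxp3, and lies on chromosome 17 from 25830505 to 25833404. Its normalized count was 146 (PBS 1), 198 (PBS 2), 187 (TSLP 1) and 185 (TSLP 2), so that the change was 0.13 on the log2 scale (standard error 0.40). Without PBS 1 it was −0.089, and without PBS 2 it was 0.35. The lowest value was that of PBS 1, and the remaining 3 libraries were close together. Stub1 shares 1084 of its 2561 exon bases with Jmjd8 on the opposite strand. The paper states that the libraries were made with a directional kit. The strand setting of the counting is not given in the sources used here, so reads of the pair may not be separated. Jmjd8 had 116, 105, 135 and 56 reads in PBS 1, PBS 2, TSLP 1 and TSLP 2.

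The members were also ordered by level per length, in normalized counts per kb of exon averaged over the 4 libraries. Cblb was at 844 and Peli1 at 768, above 95.2% and 94.6% of the genes tested, and the ranges of this pair over the libraries overlapped. Ndfip1 followed at 540.4, with no overlap with its neighbours on either side. Itch (159), Cbl (109), Ndfip2 (92.5) and Stub1 (70.0) formed a middle group in which each range overlapped the next. Rnf128 (10.9) and Nedd4l (8.86) overlapped as well, and Nedd4, at 1.48, was below all of them and above 1.08% of the genes tested. Summed over the members, the normalized count was 19452 (PBS 1), 22202 (PBS 2), 23643 (TSLP 1) and 21310 (TSLP 2), and Cblb and Peli1 made up 64.1% of the total.

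Genes around the members in the ubiquitin pathway were followed in 7 lists with 110 genes, of which 100 were tested. At an adjusted p under 0.05, 0 of the 100 were called, and 1 (1%) had an unadjusted p under 0.05. This was Ube2g1, a conjugating enzyme, with 727 (PBS 1), 590.3 (PBS 2), 903 (TSLP 1) and 1122 (TSLP 2). The difference was 0.62 on the log2 scale (standard error 0.25, unadjusted p of 0.0371, limma adjusted p = 0.9999). The median log2 fold change of the 100 genes was 0.05, with 62 above 0 and 38 below. Both TSLP libraries were above both PBS libraries in 21 of the 100 and below them in 5, beside 14.5% and 14.4% of all genes tested. These shares over all genes are also the background for the genes named in each list below. No list was tested as a set. PBS 1 was the lowest library in 45 of the 100 and the highest in 29, beside 34.0% and 32.4% of all genes tested. Its part in these counts was not tested.

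Of the other ligases of the NEDD4 family, 4 of 6 were tested. Their median log2 fold change was 0.10, and none had groups that did not overlap. Smurf2, which acts on TGF-β receptor signaling, had 783 (PBS 1), 1264 (PBS 2), 1227 (TSLP 1) and 1279 (TSLP 2), and Wwp2 had 940.2, 1221, 1033 and 1167 in the same order. Of 15 relatives of CBL, GRAIL and Pellino, 9 were tested, with a median of 0.02. Rnf149, with 979, 975, 988 and 994, and Rnf13, Znrf3 and Peli2, the latter 3 named after their values were seen, were higher in both TSLP libraries, and Rnf167 was lower, with 1613, 1613, 1176 and 1377 (log2 fold change −0.34, standard error 0.22). Cblc, the epithelial member of the CBL family, had no reads in any library.

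Of 23 other ligases described in T cells, 22 were tested, with a median of 0.12. The remaining gene, March1, had no row under this symbol in the deposited table. That table holds 27 gene names in the form of a date, which were not traced back to symbols. Whether March1 is among them was not tested. Trim28 and Rc3h1 (Roquin-1, which binds mRNAs of costimulatory receptors) had the highest counts. Rc3h1 was at 2620 (PBS 1), 3491 (PBS 2), 3827 (TSLP 1) and 3544 (TSLP 2), a difference of 0.28 on the log2 scale (standard error 0.23). With it, Trim27, Fbxw7, Skp2 and Birc3, also named after their values were seen, were higher in both TSLP libraries, and none of the 22 was lower in both. Skp2, which drives the degradation of the cell cycle inhibitor p27, had the largest change of these, with 30.0, 34.0, 89.5 and 65.8 (log2 fold change 1.24, standard error 0.69, unadjusted p of 0.107 and limma adjusted p = 0.9999).

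Deubiquitinases remove ubiquitin, and 13 of 14 were tested, with a median log2 fold change of 0.13. Usp9x, and with it Usp7, Usp12, Cyld and Usp15, named after their values were seen, were higher in both TSLP libraries, and none was lower in both. Usp9x, which acts on ITCH, had 3753 (PBS 1), 7423 (PBS 2), 7987 (TSLP 1) and 7562 (TSLP 2), so that the value of PBS 1 stood apart and the other libraries were close. Cyld, which restrains NF-κB signaling, had 1708, 1804, 2029 and 2766 (log2 fold change 0.43, standard error 0.23). Tnfaip3, which encodes A20, had by far the most reads of this list, with 39998, 33293, 46050 and 31084 and a log2 fold change of 0.05.

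All 18 genes of ubiquitin and its activating and conjugating enzymes were tested, with 9 above 0 and 9 below. Uba1, the main activating enzyme, was at 5814 (PBS 1), 6018 (PBS 2), 6674 (TSLP 1) and 6186 (TSLP 2). Of 12 binding partners of CBL proteins, all were tested, with a median of 0.08. Pik3r1 and Sla, and with them Cd2ap and Crkl, named after their values were seen, were higher in both TSLP libraries. Pik3r1, the regulatory subunit of PI3 kinase, had 4110 (PBS 1), 4973 (PBS 2), 5369 (TSLP 1) and 5314 (TSLP 2), and Sla had 6529, 6529, 6771 and 7218. Of 22 genes whose proteins are described as substrates, all were tested, with a median of −0.01 and 11 on either side of 0. Junb, the substrate of ITCH, had 27687 (PBS 1), 14790 (PBS 2), 20314 (TSLP 1) and 13092 (TSLP 2), and in each group the library numbered 1 was higher. Jak1 was higher in both TSLP libraries (log2 fold change 0.21, standard error 0.25), and Zap70 and Cd3g, named after their values were seen, were among those lower in both.

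**Figure D5:**
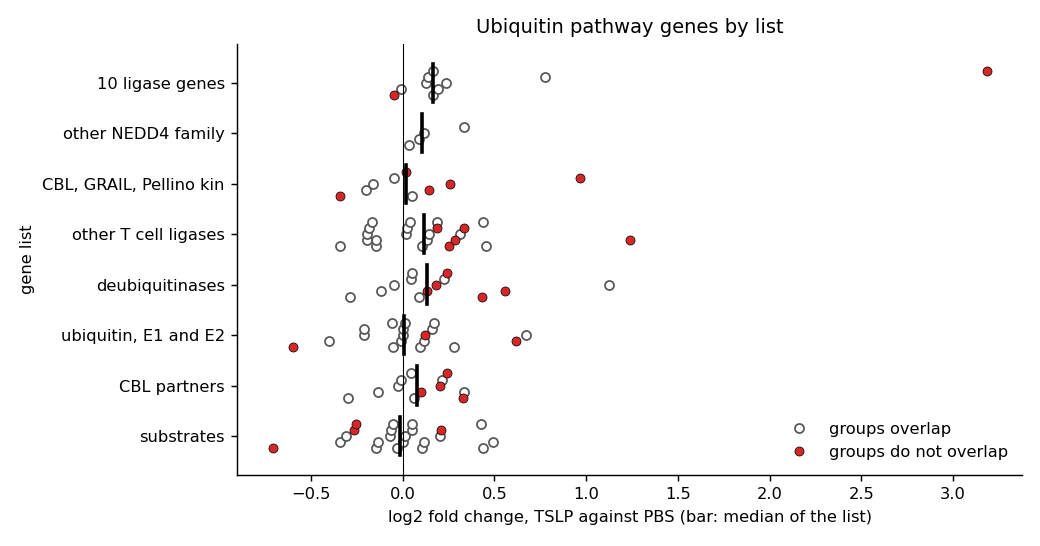
Log2 fold change, TSLP against PBS, of the genes tested in each list, 1 point per gene, filled where the 2 TSLP libraries lie above or below both PBS libraries, with the median of each list as a bar. The medians lie between −0.01 and 0.17, and Nedd4, at 3.18, is the point farthest to the right.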

How the data were processed

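Treg cells were sequenced in 2 PBS and 2 TSLP samples. The authors mapped single-end reads to mm10 with Hisat2, counted them on genes with HTSeq and scaled them. The deposited values are thus a signal, read counts divided by a size factor from 0.957 to 1.06, and 100% were whole multiples of 1 read within 0.01. For PBS 2, whose size factor of 0.999 is close to 1, this says little for genes with few reads. The annotation used by the authors is not given in the sources used here.

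The main test was limma with an intensity trend on log2(deposited value + 1), with Benjamini-Hochberg adjustment over 11392 genes. A count test was an alternative only (edgeR with TMM, DESeq2), run on the recovered reads. Other alternatives were pseudocounts, filters, scalings, a replicate block, removal of the length trend and leaving out each library. Exon lengths, positions and overlaps came from GENCODE M21. The tests were also tried on simulated data, from which no result is given here. R 4.3.3, limma 3.58.1, edgeR 4.0.16 and DESeq2 1.42.0 were used.

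The 10 members and the lists were chosen with earlier results of these data known. All members were named. From the other lists, genes with an unadjusted p under 0.05, the 2 genes with the highest mean, or those stated were named, and for pattern likeness the 3 genes closest to the member with the smallest p. Some genes that this rule would name are not reported here.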

Additional observations from a re-analysis of the deposited data

How the results depend on the processing

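No member had an unadjusted p under 0.05 under any of the 11 settings that kept all libraries, and the smallest adjusted p of a member was 0.983, with no filter on low counts. Across these settings 106 of 108 member values kept their direction. The exceptions were Ndfip2 (−0.073) and Nedd4l (−0.073) with the length trend removed. Nedd4 and Rnf128 did not pass a filter at 50. The number of genes at an unadjusted p under 0.05 was 358 with no filter on low counts, and 79 to 1858 on leaving out a library, the most without PBS 2. Leaving out each library was planned as values without a test, and the p-values, which assume that the lone library varies like the other group, were added. In those fits 0 to 3 members were under 0.05 (Cbl, Nedd4 and Itch without PBS 2, with adjusted p from 0.262). The log2 fold changes then ranged from −0.41 to 1.96 for Cbl, 0.052 to 0.33 for Cblb, −0.083 to −0.0088 for Ndfip1, −0.11 to 0.45 for Itch, −0.12 to 0.39 for Ndfip2, −0.17 to 0.64 for Nedd4l, 1.52 to 4.84 for Nedd4, −0.23 to 0.56 for Rnf128, −0.11 to 0.094 for Peli1 and −0.089 to 0.35 for Stub1. The cause was not tested. Same-numbered libraries did not deviate together (Pearson r of 0.00072 across genes), and with a replicate block limma gave 258 genes and edgeR 215 at an unadjusted p under 0.05, with 0 members in either. Counts of genes whose groups do not overlap under other settings were chosen after seeing the data and lay within 1.5 times the 3294 reported. Nedd4 and Rnf128 had 9 to 49 reads in most libraries, and Nedd4 had 0 in PBS 1. Counts this low carry a large counting error, and the effect of depth was not tested.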

Other observations

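The genes with a mean normalized count of at least 100 whose pattern over the 4 libraries lay closest to that of Nedd4, the member with the smallest unadjusted p, were Slc44a1, Trpm4 and Gm4759. The measure was the root mean square difference of the centred log2 values, which was 0.52, 0.61 and 0.64. No gene of 8174 lay within 0.2. Nedd4 passed the filter on low counts through the TSLP libraries alone. Its choice and the likeness are thus a description and bear on no difference between the groups. Slc44a1, a choline transporter gene, had 13.6 (PBS 1), 137 (PBS 2), 225 (TSLP 1) and 193 (TSLP 2) normalized counts, with PBS 1 far below the other libraries.

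For Cbl, taken up after its values were seen, the closest genes were Angptl2 (0.039), Kcna3 (0.081) and Zbed6 (0.084), and 15 genes lay within 0.2. Kcna3, which encodes the potassium channel Kv1.3 of T cells, had 142 (PBS 1), 678 (PBS 2), 538 (TSLP 1) and 571 (TSLP 2) normalized counts, and Zbed6 had 602, 2827, 2519 and 2387 in the same order. In both genes PBS 1 was the lowest library and PBS 2 the highest, as for Cbl, so the groups overlapped. This follows from their choice by likeness to Cbl.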
